A study of Rattus norvegicus with 6 samples.

Results

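Very-low-density lipoprotein (VLDL) is the particle in which liver exports triglyceride, and 10 genes for its assembly and for the apolipoproteins of plasma are described here: Apob, Mttp, Tm6sf2, Apoa1, Apoc3, Apoa4, Apoa5, Apoe, Apoc2 and Apof. They were listed by name and looked up among 22093 genes of a rat liver array. Each of the 10 genes had 1 probe set with a single gene symbol, so no choice between probe sets was needed. The livers came from adult Sprague Dawley rats on chow, killed fed. In the STZ-O group the father had been made hyperglycaemic by intraperitoneal streptozotocin, which destroys insulin-producing beta cells, and in the CB-O group the father had received citrate buffer by the same route. All dams were healthy, and all offspring themselves were untreated as far as the labels say. Each group had 3 arrays, from 1 rat per litter, with the sex not distinguished. The label gives no age beyond adult, and streptozotocin reached the fathers and not the offspring that were measured.

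In the hepatocyte, apolipoprotein B is the backbone of the particle, and 1 molecule stays with it for life. Microsomal triglyceride transfer protein loads lipid onto apolipoprotein B as it enters the endoplasmic reticulum, further lipid is added before export, and the particle then exchanges smaller apolipoproteins with other lipoproteins in plasma. These smaller proteins switch lipoprotein lipase on or off, guide remnants back to hepatic receptors, or form the scaffold of high-density lipoprotein.

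All expression values are log2 values from the robust multi-array average (RMA), on which a step of 1 is a doubling. A difference is the STZ-O mean less the CB-O mean on that scale. All 10 genes had a mean above 8.26, the 95th percentile of the negative control probe sets. No difference among the 10 genes passed the threshold of 0.05 after adjustment over all genes (limma, smallest adjusted p = 0.800), and 0.00% of the 22093 genes passed it. At an unadjusted limma p under 0.05 there were 2 of the 10 genes, Mttp on the higher and Apof on the lower side in STZ-O, where 5.68% of all genes and 7.63% of the genes above 8.26 reached that threshold (3.20% of all genes higher and 2.48% lower). In all, 3 of the 10 genes were on the higher and 7 on the lower side, where 51.9% of all genes had a difference below 0, with a median difference of -0.03 beside a median of -0.004 over all genes. The arrays of the groups did not overlap for 1 of the 10 genes, Mttp, where 10.1% of all genes had groups apart and 5.20% had STZ-O above.

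Promoter sequences, from 250 bases before to 50 bases after an annotated start, were held in the RefSeq table (build GRCr8) for 6 of the 10 genes: Apof, Apoa4, Apoa5, Apoc2, Apoe and Tm6sf2. Apof is shown because it had the largest difference of the 10 genes, Apoa4 and Apoa5 because they are neighbours with differences of unlike sign, and Apoc2 because it encodes the lipase activator. Capitals mark matches, on either strand, to TATAAA (the TATA box), CAAAGNNC (the core of sites bound by the liver factor HNF4), AGGTCA (the hexamer that many nuclear receptors bind) and CACGTG (the E-box, which reads the same on both strands). A match is a description of the letters only.
Apof, chr7:1284972-1285271, plus strand: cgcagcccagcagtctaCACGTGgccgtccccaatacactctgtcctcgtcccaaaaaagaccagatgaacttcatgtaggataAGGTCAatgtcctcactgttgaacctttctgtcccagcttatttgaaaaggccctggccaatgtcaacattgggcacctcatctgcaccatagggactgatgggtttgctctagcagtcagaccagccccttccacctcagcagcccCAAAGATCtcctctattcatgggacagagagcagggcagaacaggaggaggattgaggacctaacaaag
Apoa4, chr8:55435529-55435828, plus strand: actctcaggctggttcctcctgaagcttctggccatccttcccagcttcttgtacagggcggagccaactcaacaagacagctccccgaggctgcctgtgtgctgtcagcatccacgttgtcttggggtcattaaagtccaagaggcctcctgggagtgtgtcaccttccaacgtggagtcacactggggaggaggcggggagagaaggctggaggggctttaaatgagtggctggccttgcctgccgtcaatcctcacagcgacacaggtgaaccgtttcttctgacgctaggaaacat
Apoa5, chr8:55457621-55457920, plus strand: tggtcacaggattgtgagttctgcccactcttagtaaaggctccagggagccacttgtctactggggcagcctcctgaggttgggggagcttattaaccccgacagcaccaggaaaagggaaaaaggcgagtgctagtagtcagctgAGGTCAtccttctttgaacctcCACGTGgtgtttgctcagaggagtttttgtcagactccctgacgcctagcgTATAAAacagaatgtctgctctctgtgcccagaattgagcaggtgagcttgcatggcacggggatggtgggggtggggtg
Apoc2, chr1:88462316-88462615, minus strand: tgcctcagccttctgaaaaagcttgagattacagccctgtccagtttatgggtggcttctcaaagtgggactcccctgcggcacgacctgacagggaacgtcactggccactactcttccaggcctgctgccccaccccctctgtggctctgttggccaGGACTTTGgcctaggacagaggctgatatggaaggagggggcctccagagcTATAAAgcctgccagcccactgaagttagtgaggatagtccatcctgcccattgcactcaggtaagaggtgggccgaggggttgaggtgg
The Apof window held an E-box 233 bases before the start, an AGGTCA hexamer at 166 bases and an HNF4 core at 19 bases, and no TATA box. The Apoa5 window, the first of its 2 annotated starts, held an AGGTCA hexamer 103 bases before the start, an E-box at 81 bases and a TATA box at 30 bases. The Apoc2 window held a TATA box at 40 bases and an HNF4 core at 91 bases. The Apoa4 window held none of these letters. Over all 33469 promoters of the table, 14.2% held the TATA box, 17.4% the HNF4 core, 16.2% the hexamer and 6.42% the E-box. The motifs and windows were chosen with the sequences in view.

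The assembly genes were examined first. Apob encodes the structural protein of VLDL. Its level was 12.40, 12.44 and 12.38 in STZ-O replicates 1 to 3 and 12.39, 12.41 and 12.48 in CB-O replicates 1 to 3. The groups lay across each other within 0.097 log2 units. The difference was -0.02 ± 0.06 (limma SE, n = 3 per group, adjusted p = 0.993), with a 95% interval of -0.15 to 0.11.

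Mttp encodes the microsomal triglyceride transfer protein. It was at 10.39, 10.49 and 10.26 in STZ-O and at 10.24, 10.19 and 10.14 in CB-O, so every STZ-O array lay above every CB-O array, although the lowest STZ-O array and the highest CB-O array were only slightly apart. The group means were 10.38 ± 0.12 (SD, n = 3) and 10.19 ± 0.05 (SD, n = 3). The difference of 0.19 ± 0.07 (SE) corresponds to 1.14-fold, with an unadjusted limma p of 0.0326 and an adjusted p of 0.838, so it did not pass. With 1 array left out it lay between 0.13 (without STZ-O replicate 2) and 0.25 (without STZ-O replicate 3). The level of Mttp relative to Apob on the same array was higher by 0.21 in STZ-O, a contrast chosen after the values were seen. Its exact two-sided permutation p was 0.1, the smallest possible with 3 arrays against 3. Apob spanned only 0.097 log2 units over all arrays, so this contrast largely repeated the difference of Mttp itself. The groups of Mttp had already been seen to lie apart, so this p is not separate evidence. P4hb, which encodes the protein disulphide isomerase that forms the active complex with the transfer protein, was at 10.97 ± 0.10 in STZ-O and 10.87 ± 0.06 in CB-O (SD, n = 3), a difference of 0.10 ± 0.07 (limma SE, adjusted p = 0.959) with overlapping arrays.

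Tm6sf2 encodes a membrane protein of the endoplasmic reticulum and Golgi that is needed for full lipid loading of VLDL. Its values were 8.85, 8.69 and 8.72 in STZ-O and 9.08, 8.79 and 8.63 in CB-O. The CB-O arrays held both the highest and the lowest of the 6 values, and the difference was -0.08 ± 0.11 (limma SE, adjusted p = 0.988).

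**Figure D1:**
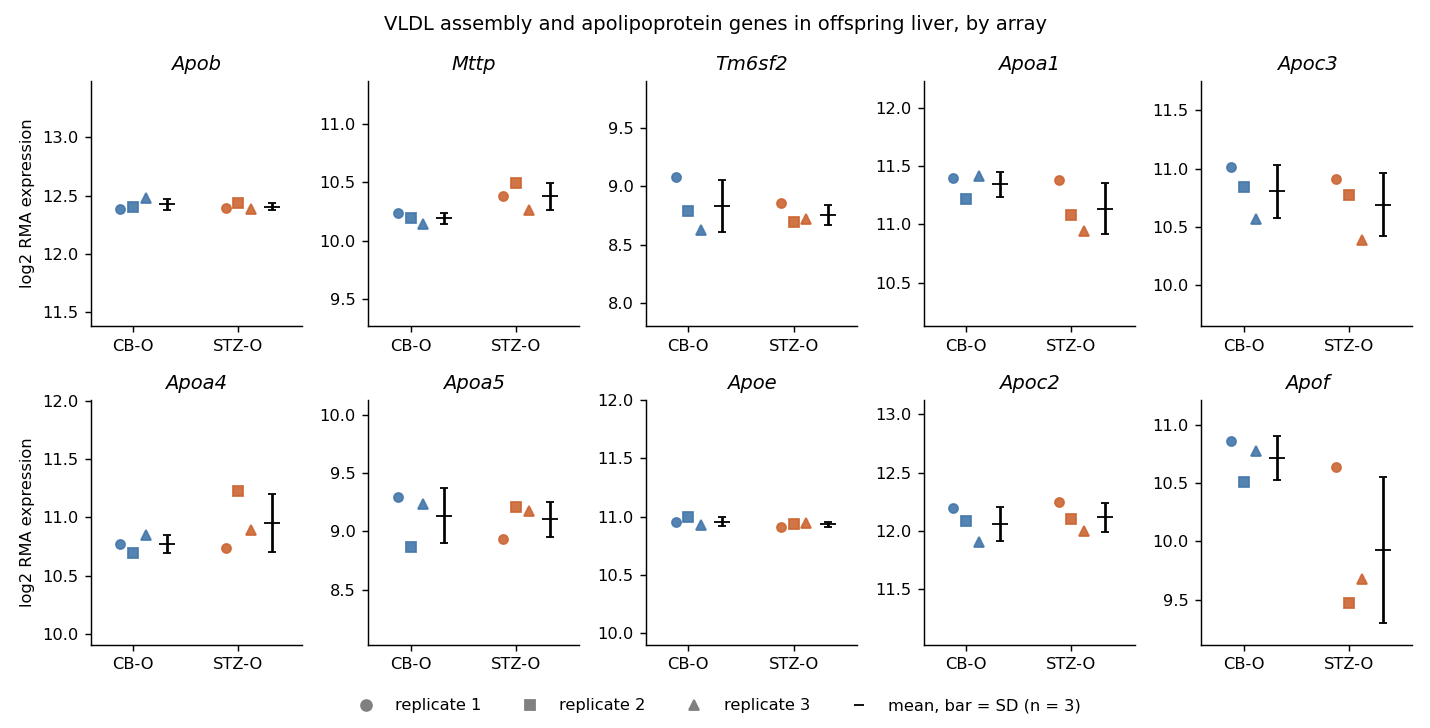
Log2 RMA expression of the 10 genes on each array, by group, with 1 symbol per replicate and the mean with its SD (n = 3) beside the points; every panel spans the same number of log2 units. Mttp is the gene whose groups do not overlap, Apof has STZ-O replicates 2 and 3 far below the other 4 arrays, and Apob and Apoe hardly vary.

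Apoa1, Apoc3, Apoa4 and Apoa5 follow each other on chromosome 8 in the reference gene table, with no other protein-coding gene between them. Their differences were of unlike sign. Apoa1 encodes the main protein of high-density lipoprotein. It was at 11.38, 11.08 and 10.95 in STZ-O and at 11.40, 11.22 and 11.41 in CB-O. STZ-O replicates 2 and 3 lay below all 3 CB-O arrays, while STZ-O replicate 1 lay among them. The difference was -0.21 ± 0.11 (limma SE, unadjusted p = 0.105, adjusted p = 0.932), or 1.16-fold lower, and it ranged from -0.33 without STZ-O replicate 1 to -0.11 without STZ-O replicate 3.

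Apoc3 encodes an inhibitor of lipoprotein lipase and of remnant uptake. Its values of 10.91, 10.77 and 10.39 in STZ-O and 11.01, 10.84 and 10.56 in CB-O gave a difference of -0.12 ± 0.15 (limma SE, adjusted p = 0.988). The spread within each group was larger than the distance between the means, and the replicate 3 array was the lowest of its group on both sides.

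Apoa4 encodes an apolipoprotein that rat liver and intestine secrete with triglyceride-rich particles. It was at 10.74, 11.23 and 10.89 in STZ-O and at 10.77, 10.69 and 10.85 in CB-O. STZ-O replicate 2 stood alone at the top, and STZ-O replicate 1 lay within the CB-O range. The difference was 0.18 ± 0.12 (limma SE, unadjusted p = 0.172, adjusted p = 0.956), with a 95% interval of -0.10 to 0.46, and it was 0.04 without STZ-O replicate 2. Apoa5, whose product promotes clearance of plasma triglyceride, was at 8.93, 9.21 and 9.17 in STZ-O and at 9.30, 8.86 and 9.24 in CB-O. Its arrays overlapped fully, with a difference of -0.03 ± 0.13 (limma SE, adjusted p = 0.995).

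Taking Apoa4 minus Apoa1 on each array, a contrast chosen after the values were seen, CB-O was at -0.63, -0.53 and -0.56 and STZ-O at -0.64, 0.15 and -0.06. The CB-O arrays were close together, and 2 of the 3 STZ-O arrays lay above them. The exact two-sided permutation p was 0.4. The gene next to the cluster beyond Apoa1, Sik3, differed by -0.13 ± 0.08 (limma SE, adjusted p = 0.955).

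**Figure D2:**
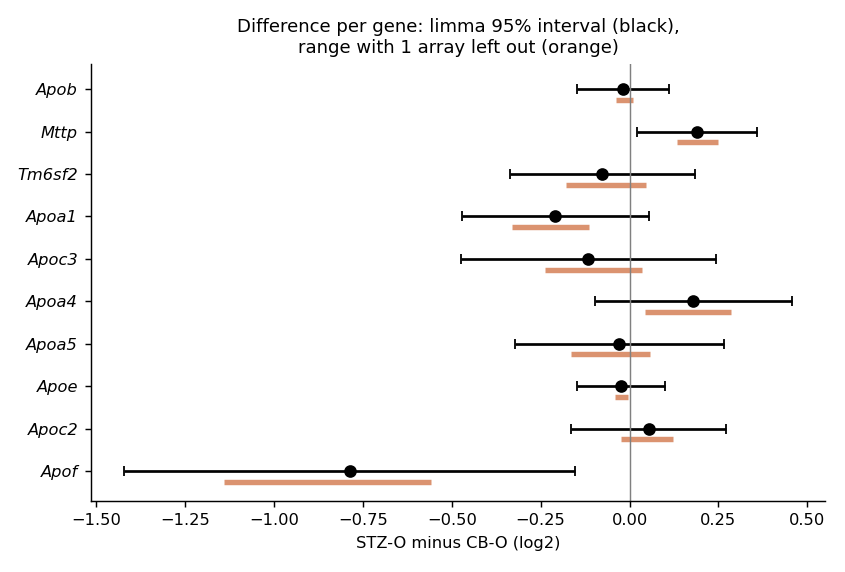
Difference (STZ-O minus CB-O, log2) of each of the 10 genes with its 95% limma interval in black and, below it in orange, the range of the difference when 1 array is left out. The interval of Mttp lies above 0 and that of Apof below 0 before adjustment, and the other 8 intervals span 0.

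Among the apolipoproteins that are carried and exchanged in plasma, Apoe and Apoc2 lie on chromosome 1 with Apoc4 and Apoc1 between them. Apoe encodes the ligand by which remnants are taken up. It was at 10.91, 10.94 and 10.95 in STZ-O and at 10.95, 10.997 and 10.92 in CB-O. Its whole range over 6 arrays was 0.086, the narrowest of the 10 genes, and the difference was -0.02 ± 0.05 (limma SE, adjusted p = 0.991), with a 95% interval of -0.15 to 0.10. Apoe is also made by macrophages. The level of 10 Kupffer and macrophage markers, as a mean deviation from each gene's average, was -0.382 on STZ-O replicate 3 and between -0.051 and 0.195 on the other 5 arrays. Apoe was at 10.95 on STZ-O replicate 3, and the part of these markers in its level was not tested. Of these 10 markers, 5 averaged above 8.26.

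Apoc2 encodes the activator of lipoprotein lipase. Its values were 12.25, 12.10 and 12.001 in STZ-O and 12.20, 12.08 and 11.91 in CB-O, with a difference of 0.05 ± 0.09 (limma SE, adjusted p = 0.990) and overlapping arrays. Apoc3, the inhibitor, relative to Apoc2, the activator, on the same array differed by -0.17 between STZ-O and CB-O, a contrast chosen after the values were seen (exact two-sided permutation p = 0.3). The genes between Apoe and Apoc2 differed by -0.04 ± 0.06 (Apoc1) and -0.06 ± 0.19 (Apoc4; limma SE). All 4 genes of that cluster lay within 0.06 of 0.

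Apof encodes apolipoprotein F, known in human plasma as an inhibitor of lipid transfer between lipoproteins. It was at 10.63, 9.47 and 9.68 in STZ-O and at 10.86, 10.51 and 10.77 in CB-O. STZ-O replicates 2 and 3 lay well below the other 4 arrays, and STZ-O replicate 1 lay inside the CB-O range. The means were 9.93 ± 0.62 (SD, n = 3) and 10.71 ± 0.19 (SD, n = 3). The difference of -0.79 ± 0.27 (SE), or 1.73-fold lower, had an unadjusted limma p of 0.0213 and an adjusted p of 0.800, so it did not pass, and its 95% interval ran from -1.42 to -0.15. It was -1.14 without STZ-O replicate 1 (limma adjusted p = 0.206) and -0.56 without STZ-O replicate 2 (limma adjusted p = 0.891). Its neighbours on chromosome 7 were closer to 0, with Apon, which encodes apolipoprotein N, at -0.11 ± 0.11 and Stat2 at -0.04 ± 0.15 (limma SE). The standard deviation of Apof over the 6 arrays, 0.595, was the largest of the 10 genes.

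**Figure D3:**
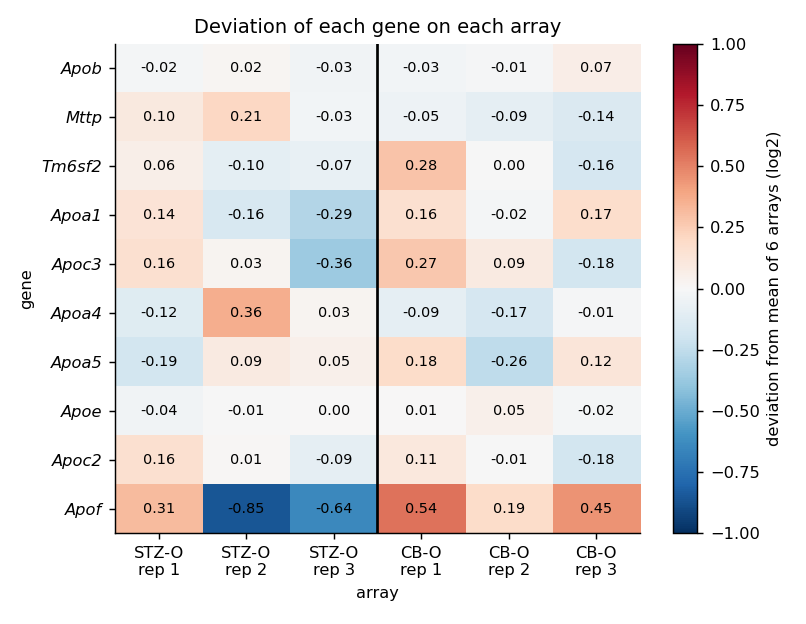
Deviation of each of the 10 genes from its own mean over 6 arrays (log2), 1 column per array, with STZ-O to the left of the line. Apof holds the extreme values, -0.85 and -0.64 on STZ-O replicates 2 and 3, and Apob and Apoe stay near 0 on all arrays.

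The genes did not all deviate in the same direction on each array. On CB-O replicate 3, for example, Apof was at 0.45 from its own mean and Apoc3 at -0.18. The closest pair was Apob and Apoe, whose deviations from their own means differed by a root mean square of 0.0497 log2 units over the 6 arrays, both being nearly flat, and the next was Tm6sf2 and Apoc2 at 0.0942. The most distant pair was Apoa4 and Apof at 0.691. This distance depends on how widely each gene varies, so it cannot tell whether the genes of a pair rise and fall together. Tm6sf2, Apoc3 and Apoc2 were highest on replicate 1 of each group, and Apoc3 and Apoc2 lowest on replicate 3 of each group. Apoa1 and Apoc3 were at their lowest of all on STZ-O replicate 3. The Kupffer and the sinusoidal endothelial marker lists, each as a mean, were also lowest on that array (mean deviation -0.382 and -0.367). Marco of the Kupffer list and Clec4g of the endothelial list, at 7.67 and 7.90 there, were not at their lowest. The part of those markers in the result was not tested. In bulk RNA, fewer cells of a type and less RNA per cell cannot be told apart.

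Of 2910 other genes above 8.26, those with deviations closest to Apof were the metallothionein gene Mt2A and Nrg4, which encodes a secreted growth factor, both at a root mean square of 0.273, against a median of 0.556. Mt2A was at 10.88, 9.55 and 9.40 in STZ-O and at 10.91, 10.71 and 10.25 in CB-O. Nrg4 was at 8.60, 7.58 and 8.12 in STZ-O and at 8.66, 9.03 and 8.66 in CB-O. STZ-O replicates 2 and 3 were the lowest 2 arrays for both, as for Apof, which follows from their selection by closeness to Apof. Next came Prg4 at 0.350 and Slc26a8 at 0.367. Closest to Mttp were Rig1 (0.0395), Dhtkd1 (0.0400), Foxp1 (0.0405) and Rps24-ps19 (0.0440), against a median of 0.145. Closest to Apoa1 were St3gal1 (0.0551), the cytochrome P450 gene Cyp1a2 (0.0589), Tmem176b (0.0599) and Tspan4 (0.0624), against a median of 0.205. With 6 arrays such likeness describes these livers only.

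Beyond the 10 genes, 82 other genes of the pathway were listed and 75 measured. Of these, 40 were higher and 35 lower in STZ-O, 5 had an unadjusted limma p under 0.05 (6.67%, beside 5.68% of all genes), all 5 higher, and 0 passed the adjustment. Among 10 other apolipoprotein genes 3 were higher and 7 lower. The 2 with an unadjusted p under 0.05 were Apod, which encodes a lipocalin, at 0.30 ± 0.08, and Apool, which encodes a subunit of the mitochondrial cristae complex, at 0.18 ± 0.06 (limma SE, adjusted p = 0.680 and 0.800). Neither product is a core protein of VLDL, and both probe sets averaged below 8.26. Apoa2, Apoh and Apom, which encode plasma apolipoproteins, were at -0.11 ± 0.14, -0.01 ± 0.05 and 0.03 ± 0.09 (limma SE).

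Apob mRNA is edited in rat liver, which yields the shorter apolipoprotein B-48. Of 5 editing genes 2 were higher and 3 lower, with 0 at an unadjusted limma p under 0.05. The smallest p belonged to Apobec1, the deaminase, at -0.15 ± 0.11 (limma SE, adjusted p = 0.960). Of 19 measured genes of assembly and export 12 had a higher and 7 a lower mean in STZ-O (median difference 0.02), all with overlapping arrays and 0 at an unadjusted limma p under 0.05. Sort1, which encodes a sorting receptor, had the smallest p there, at -0.16 ± 0.10 (limma SE, adjusted p = 0.937). Apobec1 and Sort1 averaged 7.19 and 7.22, both below 8.26. The coat and cargo genes Sar1b, Mia2 and Sec24a were at -0.06 ± 0.07, 0.02 ± 0.08 and 0.04 ± 0.09 (limma SE).

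Among 10 measured genes of plasma lipases and remodelling 5 were higher and 5 lower, with 0 at an unadjusted limma p under 0.05. Angptl4, which encodes a lipase inhibitor, was at 7.84, 7.82 and 7.61 in STZ-O and at 7.99, 7.02 and 6.95 in CB-O, so 1 CB-O array lay above all others and 2 far below. Its difference was 0.43 ± 0.25 (limma SE, adjusted p = 0.936), and it lay between 0.25 and 0.77 with 1 array left out. The Angptl4 probe set averaged 7.54, below 8.26. Lipc, the hepatic lipase gene, and Lcat, which encodes the enzyme that esterifies cholesterol in plasma, were at 0.08 ± 0.08 and 0.00 ± 0.10 (limma SE). Among 10 measured receptor genes 7 were higher and 3 lower. Cd36, which encodes a fatty acid and lipoprotein scavenger receptor, was the 1 receptor gene with an unadjusted limma p under 0.05, beside 5.68% of all genes. It was at 0.44 ± 0.19 (limma SE, adjusted p = 0.871). Its arrays overlapped, and the difference lay between 0.30 and 0.68 with 1 array left out. The Cd36 probe set averaged 7.93, also below 8.26.

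Of 21 measured transcriptional regulators 11 were higher and 10 lower, and 2 had an unadjusted limma p under 0.05, beside 5.68% of all genes. They were Ppara, the fatty acid receptor gene, at 0.47 ± 0.11 and Nr0b2, which encodes the repressor SHP, at 0.81 ± 0.17 (limma SE, adjusted p = 0.570 and 0.529). Ppara averaged 9.79, and Nr0b2 averaged 6.76, below 8.26. Hnf4a, whose product activates many apolipoprotein genes, was at 10.20, 10.24 and 9.91 in STZ-O and at 10.17, 10.45 and 10.28 in CB-O, with a difference of -0.19 ± 0.11 (limma SE, adjusted p = 0.936). Its STZ-O replicate 3 was the lowest array, as for Apob, Apoa1 and Apoc3, and also for Lrp1, Sort1, Cps1 and Hpx. Apof was lowest on STZ-O replicate 2 and Mttp on CB-O replicate 3. A link between Hnf4a and these genes was not tested. Creb3l3, which encodes an activator of Apoa4 and Apoc2 in mouse liver, and Cebpa were at 0.02 ± 0.08 and 0.01 ± 0.08 (limma SE).

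**Figure D4:**
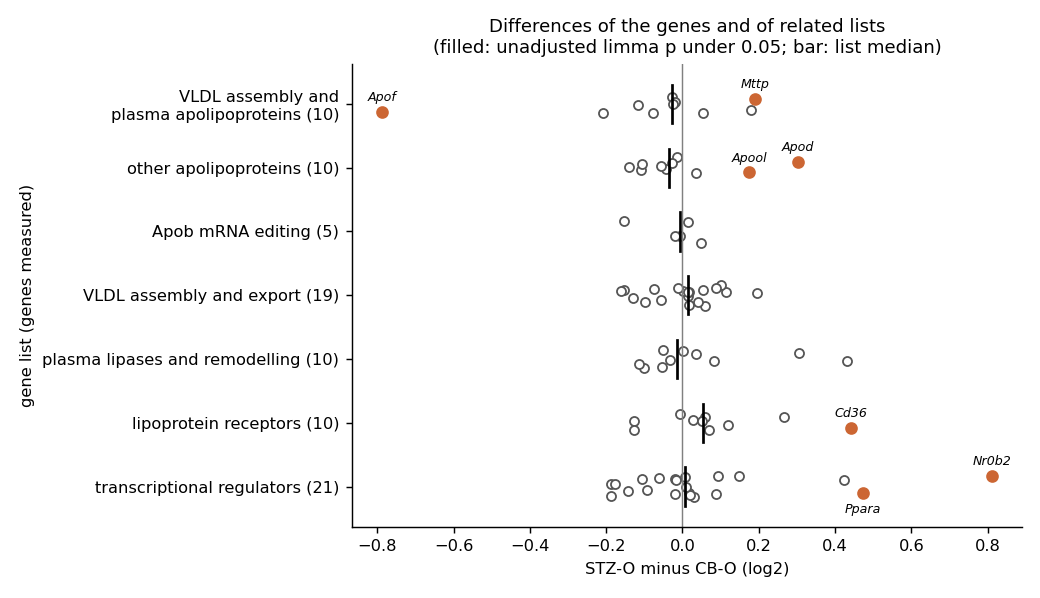
Difference (STZ-O minus CB-O, log2) of each measured gene, by list, with list medians as bars and genes at an unadjusted limma p under 0.05 filled and named. Apof lies apart on the left at -0.79, and list medians stay between -0.03 and 0.05.

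The tissue label was checked with marker genes. Of 9 measured hepatocyte markers 8 averaged above 8.26, Alb at 13.15, and the list level lay between -0.078 and -0.028 in STZ-O and between 0.029 and 0.070 in CB-O. Serpina1 alone averaged below. The median difference of the list was -0.02, with 4 genes higher and 5 lower. An unadjusted limma p under 0.05 was reached by 3 of the 9, beside 5.68% of all genes. These were Serpina1, Ass1 and Hp, all lower, at -0.38, -0.34 and -0.15. The arrays of the groups did not overlap for 3 markers with STZ-O below, Serpina1, Ass1 and Hp, and for 1 with STZ-O above, Ttr at 0.08. Over all genes 10.1% had groups apart. The part of the hepatocyte list in the differences of the 10 genes was not tested. Of 7 intestinal epithelial markers 0 averaged above 8.26. Ddx3y, on the Y chromosome, was between 9.22 and 9.67 on all 6 arrays. Pairs of arrays had Pearson correlations of 0.991 to 0.994 over the tested probe sets, which are not independent replicates. Apob and Apoc2 reached 12.48 and 12.25, on a scale whose highest value in the table was 13.51.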

How the data were processed

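Total RNA was hybridised to 6 Affymetrix rat transcriptome arrays (RTA-1_0), 3 per group, grouped by the labels' titles. The authors deposited log2 values of 70580 probe sets. They were made with Affymetrix Expression Console 1.4.1 and RMA, per the submitters' processing notes. Parameters and build: not given in the sources used here. RMA equalises overall brightness between arrays and can compress differences of dim or very bright probe sets. The number of arrays limits the precision.

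After 1738 control probe sets were left out, 68842 remained. The platform annotation gave 1 symbol to 23446, and the brightest probe set stood for each of 22093 genes. limma 3.58.1 in R 4.3.3 (lmFit, eBayes, two-sided, no covariate) was fitted to all genes and tested on simulated data, with Benjamini-Hochberg adjustment over all genes. The ± beside a difference is limma's moderated SE. Exact permutation tests used scipy 1.17.1.

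The 10 genes and all lists were chosen with earlier results of these data known. All 10 genes are named. From each other pathway list come the genes with an unadjusted p under 0.05 or else the smallest p, and any further gene there was chosen after its values were seen. The 4 genes of closest deviations are named for the 3 genes of smallest p. Listed genes without a value are not analysed here. P-values rest on the spread between 3 rats per group, and those of limma also on variances moderated over all genes. The number of fathers in each group is not stated here. Alternatives changed moderation, array weights, the dim filter, scaling, probe set choice, adjustment, a Y-linked covariate, the replicate number as a block, and left out each array.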

Additional observations from a re-analysis of the deposited data

How the results depend on the processing

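None of the 10 genes passed the adjusted limma threshold under any of the 15 alternatives. Over all genes the count past it was 2 with an intensity trend and robust variances, and 0 to 1 with 1 array left out. The 2 genes of the 10 at an unadjusted p under 0.05 became 1 in the fit over all probe sets (Mttp then had an unadjusted limma p above 0.05), and 0 to 3 with 1 array left out: 0 without STZ-O replicate 2 or CB-O replicate 3. The median difference of the 10 genes lay between -0.063 and 0.016 with 1 array left out. Mttp, Apoa1, Apoa4, Apoe and Apof kept their sign in all 15 alternatives, but several of these could not change it. Changed moderation, the dim filter, the mean of probe sets, the fit over all probe sets and the replicate block left every difference as it was. Apoe lay between -0.041 and -0.005 with 1 array left out. Apoa5 was at 0.029 with the Y-linked covariate. With 1 array left out the differences ranged from -0.164 to 0.057 for Apoa5, from -0.024 to 0.122 for Apoc2, from -0.237 to 0.035 for Apoc3, from -0.178 to 0.045 for Tm6sf2 and from -0.038 to 0.010 for Apob. The cause was not tested. Deviations of same-numbered arrays correlated at r = 0.281, -0.317 and 0.133, and those of unlike-numbered arrays at -0.415 to 0.347. With 3 arrays per group these values cannot tell whether the numbers pair the samples. With the replicate number as a block, 2 of the 10 genes had an unadjusted limma p under 0.05. Apof then had a limma adjusted p of 0.559.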
